A study of Mus musculus with 24 samples.

Results

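Kinesins are motor proteins that walk along microtubules with the energy of ATP. The transport members carry vesicles, mitochondria and protein complexes down axons and dendrites, which in neurons of the spinal cord can be very long, while the mitotic members build and move the spindle of dividing cells and others shorten microtubules or serve cilia. Paclitaxel, the drug tested here, binds and stabilises the microtubule track on which these motors run. The kinesin genes were taken as every gene of the count table whose symbol is Kif followed by a number and, where present, a letter from a to c, which gave 38 of 55418 genes. By the known roles of their products they fell into 13 transport kinesins, 12 mitotic kinesins, 6 cilium kinesins and 7 microtubule regulators and other kinesins. Of these, 36 passed the filter on low counts. Kif2b, a mitotic microtubule depolymerase, had 0 counts in all libraries, and Kif12 stayed at or under 0.07 CPM, the unit of counts scaled to library totals.

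RNA was sequenced from the L4 to L6 cord of 24 C57BL/6J mice, 3 in each of 8 groups. The groups crossed genotype (wild-type, or a knockout of the nicotinic receptor gene Chrna7 restricted to myeloid cells), treatment (paclitaxel at 1 mg per kg in 4 injections on alternate days, or vehicle) and sex. Mice were 8 to 10 weeks old at the start, and RNA came from cords collected 7 days into dosing, counted from the first injection. The labels name neither the promoter that drove the deletion nor any allele of the controls beyond wild-type.

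Libraries held 88812295 to 112158154 counts. Chrna7, measured in whole cord where few cells are myeloid, lay at 9.52 to 15.8 CPM in 11 wild-type cords and at 9.05 to 14.3 CPM in 12 knockout cords, ranges that overlapped (log2 fold change -0.11, SE 0.06, edgeR adjusted p = 1.00), so it did not check the genotype labels. One library, replicate 3 of the wild-type females given paclitaxel, stood apart. Its 10 dorsal root ganglion marker genes summed to 5474 CPM against 90.6 to 150 CPM in the other libraries. All 5 Schwann cell markers (sum 3743 against 290 to 670 CPM) lay above the range of the others. So did all 6 skeletal muscle markers (sum 451 against 3.25 to 39.7 CPM). All markers of oligodendrocytes, astrocytes, microglia and ependymal cilia on the fixed lists lay below the range of the others. This library is called the ganglion-like library, was kept out of the comparisons, and is described on its own, which leaves 23 cords and 2 mice in that group. Cord tissue is a mixture, and fewer cells of a type cannot be told apart from less RNA per cell.

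Transport kinesins made up nearly all kinesin RNA of the cord. Levels between genes are given in CPM per kilobase of exon (CPM per kb), so that long genes are not favoured. On that scale the 13 transport kinesins held 91.5% of the kinesin level (range 90.9 to 92.1% over 23 cords), the microtubule regulators and others 7.57%, the cilium kinesins 0.58% and the 12 mitotic kinesins 0.31%.

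Kif5a, a neuronal heavy chain of kinesin-1 that carries neurofilaments and other axonal cargo, was the highest kinesin at a median of 374 CPM per kb (301.5 to 416), 2.13 times the next gene, and its range touched no other. Kif5c, the second neuronal heavy chain, followed at 176 (155 to 189), and Kif1a, the kinesin-3 motor of synaptic vesicle precursors, at 157 (148 to 173). The ranges of Kif5c and Kif1a overlapped, so their order is not fixed. Kif5b, the heavy chain found in most cell types, lay at 127 (106 to 155) and overlapped Kif1a. Kif1b, which moves mitochondria and synaptic vesicle precursors, lay at 87.8 CPM per kb (80.7 to 97.1). Within the Kif5 family Kif5a took 54.6% of the level, Kif5c 25.9% and Kif5b 19.2%.

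Kif21a, a kinesin-4 that restrains microtubule growth at the cortex, was sixth at 59.5 CPM per kb (55.6 to 63.9) and the steadiest of all members, with a coefficient of variation of 3.36% in CPM over the 23 cords. Kif3a, which pairs with Kif3b or Kif3c in kinesin-2, lay at 42.8 (38.4 to 47.2), and Kif1c, a kinesin-3 that moves vesicles between Golgi and cell periphery, at 33.2 (29.2 to 38.9). Next came Kif3c at 20.2 (17.3 to 23.3) and Kif2a, a depolymerase that prunes axon branches, at 16.5 (15.4 to 17.9). Exons of other genes cover 40.7% of the exon bases of Kif3c and 19.2% of those of Kif2a, and reads in such bases could not be assigned, so both levels are uncertain. Kif13b, Kif3b, Kif13a and Kif21b followed between 14.7 and 8.43 CPM per kb.

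**Figure D1:**
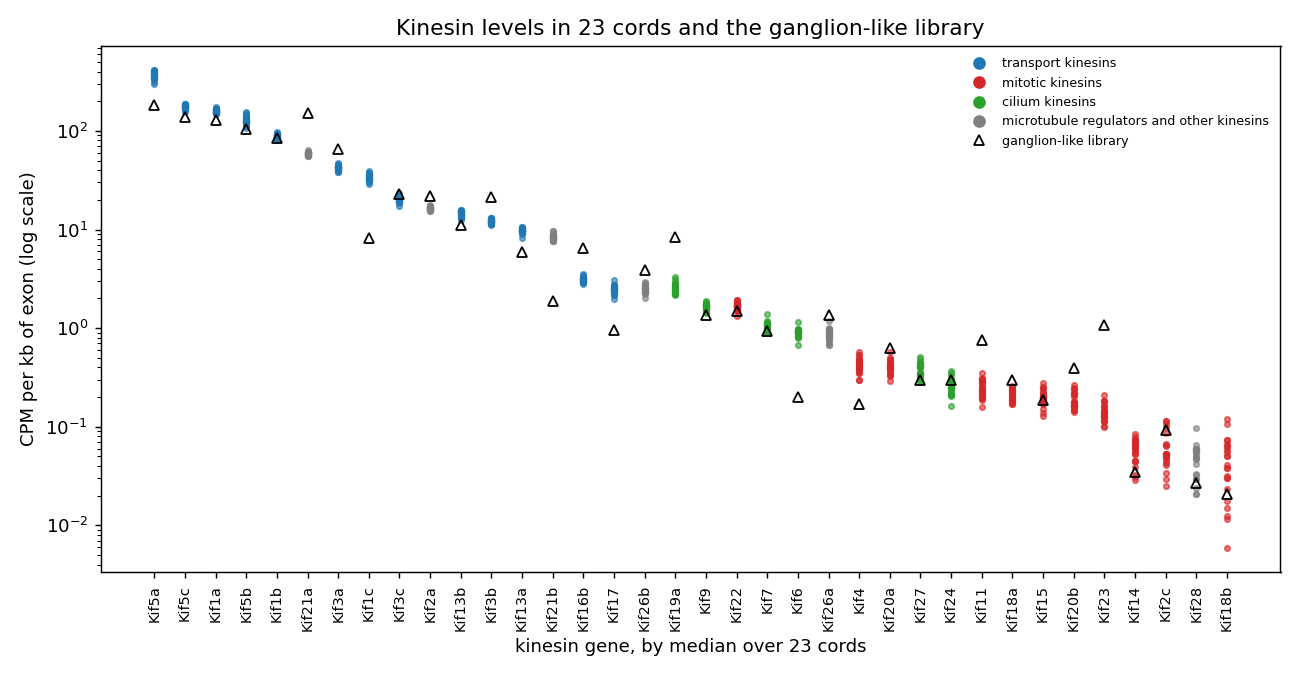
Level of each of 36 kinesins in CPM per kb of exon on a log axis, genes ordered by their median over 23 cords, 1 point per cord coloured by class and an open triangle for the ganglion-like library. Blue transport kinesins fill the left, headed by Kif5a at a median of 374, and the highest red mitotic kinesin is Kif22 at a median of 1.67.

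Mitotic kinesins were present at low counts. Kif22, a motor that binds chromosome arms, was highest of the class at 8.16 CPM (6.54 to 9.42), or 1.67 CPM per kb. Kif11, the motor that pushes spindle poles apart, lay at 1.75 CPM (1.19 to 2.59), and Kif20a, which acts in the cleavage of dividing cells, at 1.76 CPM (1.27 to 2.47), with 29.3% of its exon bases shared with another gene. The lowest members were Kif14, Kif2c and Kif18b, at medians of 0.63, 0.23 and 0.15 CPM. Low counts came with wide spread: the coefficient of variation ran from 8.33% for Kif22 to 62.7% for Kif18b. Of the cilium kinesins, Kif19a, which sets the length of cilia, was highest at 10.1 CPM (8.86 to 13.5), while Kif9, Kif6, Kif7, Kif27 and Kif24 had medians from 7.26 down to 2.05 CPM.

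The promoters of mitotic kinesins shared letters that the name rule did not use. A promoter here is the 250 bases before to 50 bases after the start of a transcript, from RefSeq on GRCm38.p6; 31 of the 38 genes had an entry. TTTGAA on either strand, the core of the cell cycle gene homology region through which many cell cycle genes are repressed in resting cells, stood in 9 of 11 mitotic kinesin promoters (81.8%), in 1 of the 12 promoters listed for 10 transport kinesins (8.33%), in 1 of 6 in each of the other classes (16.7%) and in 17.9% of all 32851 promoters. CCAAT on either strand, the letters bound by the factor NF-Y, stood in 7 of the 11 mitotic (63.6%), 4 of the 12 transport (33.3%) and 37.4% of all promoters. It also stood in 3 of 6 cilium kinesin promoters (50%) and in 1 of 6 of the regulators and others (16.7%). Both motifs stood in 6 of the 11 mitotic promoters (54.5%), 0 of the 12 transport promoters, 1 of 6 in each of the other classes (16.7%) and 6.95% of all. CCAAT can share its last T with TTTGAA. The 30 bases just before the start are shown for 3 mitotic kinesins that carry the motif there and for 2 transport kinesins that do not, each 5′ to 3′ along the gene with TTCAAA, the reverse complement of TTTGAA, in capitals.
Kif11, chr19:37376352-37376381, plus strand: cgtctccatttTTCAAAattgaggcgcgga
Kif15, chr9:122951051-122951080, plus strand: ggggcgccaaaTTCAAAtctgcggccatct
Kif22, chr7:127042421-127042450, minus strand: ggggccccggtaaTTCAAAagagagaagcg
Kif5c, chr2:49619256-49619285, plus strand: gcagtgacgtcaccgtgccgaggcggggca
Kif1b, chr4:149307734-149307763, minus strand: ctctagctcggggcggtgtcccgcgccggc
In Kif11 and Kif15 the motif begins 19 bases before the start, and in Kif22 it begins 17 bases before. Kif15 and Kif22 hold a second match, 234 and 215 bases before the start. A match anywhere in the promoter was counted, and the places differed in the other mitotic members. The match began 228 bases before the start in Kif14 and 103 in Kif2c. It began after the start in Kif23, Kif18b, Kif20b and Kif4, at positions 2 to 19. The 100 bases before the start of Kif11 show both motifs together, with ATTGG, the reverse complement of CCAAT, in capitals ahead of TTCAAA.
Kif11, chr19:37376282-37376381, plus strand: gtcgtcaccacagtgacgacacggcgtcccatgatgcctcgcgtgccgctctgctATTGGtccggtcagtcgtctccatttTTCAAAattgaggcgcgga
A match of letters is a description, and no binding was measured.

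Paclitaxel changed no kinesin past the threshold in either genotype. In wild-type cords (5 paclitaxel, 6 vehicle) 0 of 36 tested kinesins had an edgeR quasi-likelihood adjusted p under 0.05, against 0% of all 25372 tested genes. In knockout cords (6 and 6) the count was again 0, against 0.0236% of all genes, and over both genotypes it was 0, against 0.0197%. DESeq2 also called 0 kinesins in each of these comparisons, against 0.0158%, 0.54% and 0.658% of all genes, and limma voom called 0. At an unadjusted p under 0.05, 7 kinesins were lower and 1 higher in wild-type cords (3.97% and 3.99% of all genes), 1 was lower and 0 higher in knockout cords (5.77% and 5.51%), and 6 were lower and 0 higher over both genotypes (5.75% and 4.43%). Of the 36 members 26 had a log2 fold change below 0 in wild-type cords (48.1% of all genes did), 26 in knockout cords (49.4%) and 29 over both (47.1%). Of the 13 transport kinesins 12 were below 0 over both genotypes, with a median of -0.06, while the median of all genes was 0.01. Beside these values, all 7 oligodendrocyte, 6 astrocyte, 6 microglia and 5 Schwann cell markers were below 0 in wild-type cords (medians -0.11, -0.08, -0.11 and -0.11), and all 5 endothelium and 6 skeletal muscle markers and 9 of 10 neuron markers were above 0 in knockout cords (medians 0.41, 0.91 and 0.09). None of these markers was called, and their part in the kinesin values was not tested.

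Kif16b, a kinesin-3 that moves early endosomes, had the smallest p in wild-type cords. Its 5 paclitaxel cords lay at 25.9, 26.2, 26.6, 26.9 and 29.5 CPM with TMM scaling factors, and its 6 vehicle cords at 27.6 to 32.4 with a median of 29.7 (log2 fold change -0.15, SE 0.04, edgeR adjusted p = 0.528). One paclitaxel cord, the male at 29.5, lay within the vehicle range. Kif3b, the kinesin-2 partner of Kif3a, lay at 63.7, 65.2, 65.4, 65.7 and 70.1 CPM after paclitaxel and at 67.2 to 75.8 (median 73.2) after vehicle (-0.14, SE 0.04, edgeR adjusted p = 0.528). Again 1 paclitaxel cord fell inside the vehicle range and all 5 lay below the vehicle mean. Kif1b lay at 1443 to 1678 CPM (mean 1515 ± 95.8, SD, n = 5) after paclitaxel and at 1539 to 1739 (1633 ± 73.6, SD, n = 6) after vehicle (-0.12, SE 0.04, edgeR adjusted p = 0.530). Kif17, a kinesin-2 motor of dendrites and cilia, was the 1 member higher at an unadjusted p under 0.05, at 12.2 ± 1.12 CPM (SD, n = 5) against 10.8 ± 0.67 (SD, n = 6).

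In knockout cords Kif5b had the smallest p, at 945 to 1116 CPM with a median of 992 after paclitaxel and 1007 to 1196 with a median of 1053 after vehicle (log2 fold change -0.10, SE 0.05, edgeR adjusted p = 0.406). Those ranges overlapped. Kif5c stood at -0.07 (SE 0.04) and Kif18b, a kinesin-8 at the edge of detection with means of 0.16 and 0.09 CPM, at 0.89 (SE 0.49). Over both genotypes the smallest p values belonged to Kif16b (-0.10, SE 0.03, edgeR adjusted p = 0.214), Kif3b (-0.08, SE 0.03) and Kif13a (-0.07, SE 0.03). Kif13a, a kinesin-3 of recycling endosomes, was below the vehicle mean in all 11 paclitaxel cords, at 67.7 to 80.7 CPM (median 77.6), but within the vehicle range of 76.3 to 85.6 (median 80.8) in part. The 3 neuronal members were not called in either genotype: Kif1a had a log2 fold change of -0.06 (SE 0.04) in wild-type and 0.04 (SE 0.04) in knockout cords, Kif5a -0.07 (SE 0.04) and -0.04 (SE 0.04), and Kif5c -0.01 (SE 0.04) and -0.07 (SE 0.04). With the ganglion-like library counted as a wild-type paclitaxel cord, Kif16b and Kif3b turned to 0.12 and 0.05 in wild-type cords.

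**Figure D2:**
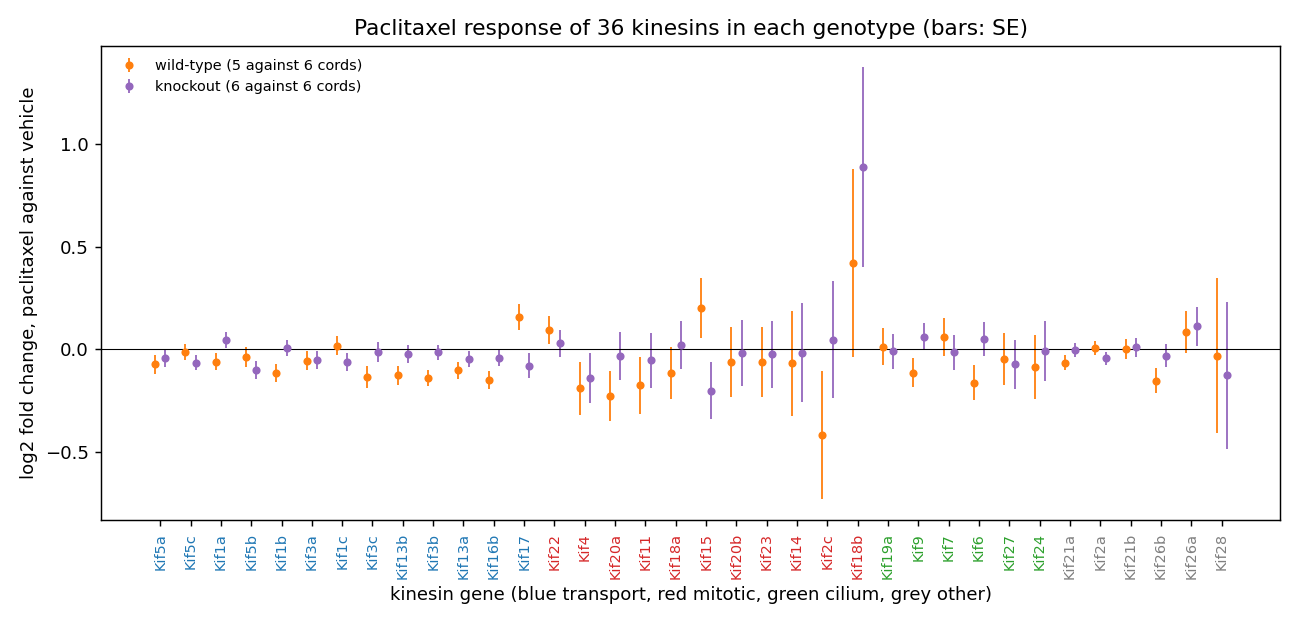
Log2 fold change of paclitaxel against vehicle for 36 kinesins in wild-type cords (orange, 5 against 6) and knockout cords (purple, 6 against 6), with bars of 1 SE and gene names coloured by class. Most points lie slightly below 0, 26 of 36 in each genotype, and the wide bars belong to low-count members such as Kif18b.

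The mitotic class also held 0 called genes. Over both genotypes 9 of 11 tested mitotic kinesins were below 0 (median -0.04). Kif11 stood at -0.18 (SE 0.14) in wild-type and -0.05 (SE 0.13) in knockout cords, Kif20a at -0.23 (SE 0.12) and -0.03 (SE 0.12), and Kif22 at 0.10 (SE 0.07) and 0.03 (SE 0.06). Of 19 cell cycle genes 12 were above 0 over both genotypes, and 0 were called. Including the ganglion-like library moved the mitotic class to 5 of 11 below 0.

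The partners of the motors gave 0 called genes under paclitaxel as well. Of 22 kinesin light chains and cargo adaptors 15 were above 0 over both genotypes (median 0.02; 52.9% of all genes were above 0), as were 16 of 27 genes of dynein and dynactin, the motor for the opposite direction (median 0.01), and 3 of 6 kinesins outside the name pattern, such as Kifc2. The 2 smallest p values over both genotypes were those of Klc4, a kinesin light chain, at 37.0 ± 2.59 CPM (SD, n = 11) against 34.3 ± 1.71 (SD, n = 12), and Rhot1, the mitochondrial anchor for kinesin-1, at 87.6 ± 3.90 against 92.1 ± 2.52 CPM (edgeR adjusted p = 0.238 and 0.282). In wild-type cords they were Hook2 (0.20, SE 0.06) and Klc4 (0.12, SE 0.05), and in knockout cords the dynein regulators Pafah1b1 (-0.11, SE 0.04) and Hook3 (-0.17, SE 0.06).

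The knockout changed no kinesin past the threshold. The count of edgeR calls was 0 of 36 over both treatments (0.0118% of all genes were called), 0 under vehicle (0.00788%) and 0 under paclitaxel (0.00394%). DESeq2 called 0 in each (0.0197%, 0.0158% and 0.0118% of all genes), as did limma voom. At an unadjusted p under 0.05 there were 4, 5 and 1 kinesins, against 3.36%, 5.2% and 6.18% of all genes. Kif11 lay at 1.21 to 2.28 CPM (median 1.62) in 12 knockout cords and 1.42 to 2.57 (median 2.06) in 11 wild-type cords (log2 fold change -0.26, SE 0.10, edgeR adjusted p = 1.00). Kif18b stood at -0.90 (SE 0.33) with means of 0.12 and 0.21 CPM, and Kif26b, an atypical kinesin without motor activity, at -0.10 (SE 0.04). Under vehicle alone Kif3b stood at -0.09 (SE 0.04), and under paclitaxel alone Kif6, a kinesin of motile cilia, stood at 0.24 (SE 0.09, edgeR adjusted p = 0.790). The test of whether the paclitaxel response differed between genotypes called 0 kinesins, as it did 0% of all genes, with 3 at an unadjusted p under 0.05 (8.41% of all genes). Kif17 had the smallest p there (-0.24, SE 0.09, edgeR adjusted p = 0.512).

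Sex was the factor with called kinesins. Between 12 male and 11 female cords 3 of 36 kinesins were called by edgeR, against 0.918% of all genes. Kif5a was lower in males, at 2073 to 2783 CPM with a median of 2445, against 2603 to 2945 with a median of 2706 in females (2443 ± 191, SD, n = 12, against 2743 ± 108, SD, n = 11). This amounts to a log2 difference of -0.17 with an SE of 0.03 (edgeR adjusted p = 0.0030), and 11 of 12 males lay below the female mean although the ranges overlapped. Kif5b was lower at 862 to 1196 CPM (median 995) against 971 to 1223 (median 1098), a log2 difference of -0.14 with an SE of 0.03 (edgeR adjusted p = 0.0360), again with 11 of 12 males below the female mean. Both differences were averages of unlike values in the 2 treatments. Under vehicle they were -0.07 (SE 0.04) for Kif5a and -0.03 (SE 0.05) for Kif5b, neither called. Under paclitaxel they were -0.27 (SE 0.04) and -0.25 (SE 0.05). Kif1c was higher in males, at 237 to 287 CPM (median 257) against 213 to 267 (median 232), with 12 of 12 males above the female mean (0.13, SE 0.03, edgeR adjusted p = 0.0430). Kif17 lay above the female mean in 12 of 12 males, with overlap of the groups, and did not pass (0.16, SE 0.04, edgeR adjusted p = 0.0841). Leaving out each of the 23 cords in turn kept Kif5a called, while Kif5b lost its call in 13 of these 23 fits (highest adjusted p = 0.212) and Kif1c in 17 (highest 0.113). DESeq2 called 4 kinesins, against 2.3% of all genes. With the ganglion-like library counted as a female all 3 edgeR calls were lost (0.113% of all genes were called), and Kif5a fell to -0.10 (edgeR adjusted p = 0.732).

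The sexes were also compared within each treatment, a choice made after the values were seen. The library numbers in the labels run with these comparisons: libraries 1 to 12 held all female vehicle and male paclitaxel cords, and libraries 13 to 24 all male vehicle and female paclitaxel cords. Sex within a treatment, and the difference of the paclitaxel response between the sexes, therefore cannot be told apart from these blocks of library numbers. Over both treatments each block held 6 male cords, with 6 female cords in the first and 5 in the second, so both sexes were in both blocks there. Under vehicle 0 kinesins were called (0.37% of all genes were), with 7 at an unadjusted p under 0.05 (12.4% of all genes). DESeq2 (1.73% of all genes) and limma voom also called 0. Under paclitaxel 4 kinesins were called, all lower in males, against 5.54% of all genes. Kif5a lay at 2073, 2208, 2336, 2383, 2411 and 2467 CPM in 6 males and at 2618, 2706, 2781, 2865 and 2945 CPM in 5 females. The groups did not overlap, as for 1.48% of all genes in that direction, and the log2 difference was -0.27 with an SE of 0.04 (edgeR adjusted p = 0.0016). Under vehicle the same gene lay at 2432 to 2783 CPM in males (median 2544) and 2603 to 2824 in females (median 2690). The log2 difference there was -0.07 with an SE of 0.04 (edgeR adjusted p = 0.490).

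Kif5b stood at 928 ± 53.0 CPM (SD, n = 6) in paclitaxel males and 1091 ± 93.8 (SD, n = 5) in paclitaxel females (log2 fold change -0.25, SE 0.05, edgeR adjusted p = 0.0054), with a small overlap of the groups. Kif5c stood at 1186 ± 54.9 against 1300 ± 40.6 CPM (-0.14, SE 0.04, edgeR adjusted p = 0.0324), also with overlap. All 3 kinesin-1 heavy chains were thus lower in paclitaxel males than in paclitaxel females. Under vehicle Kif5b stood at -0.03 (SE 0.05) and Kif5c at -0.007 (SE 0.04). Kif22 lay at 6.44 to 8.53 CPM in males (median 7.79) and at 8.78 to 9.34 in females (median 9.04), without overlap (-0.24, SE 0.07, edgeR adjusted p = 0.0390). Kif1c was higher in males under both treatments, by 0.13 (SE 0.04) under vehicle and 0.13 (SE 0.05) under paclitaxel, but passed under neither. Kif5a kept its call in each of the 23 fits that leave out 1 cord, Kif5b lost it without wild-type female paclitaxel replicate 1 (adjusted p = 0.0900), Kif5c in 6 fits and Kif22 in 10. With all 24 libraries 0 of the 4 were called, against 0.178% of all genes, and DESeq2 on the 23 cords called 5 kinesins, against 9.33% of all genes.

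The direct test of whether paclitaxel acted differently in males and females called 0 kinesins by edgeR, while it called 4.96% of all genes, with 8 kinesins at an unadjusted p under 0.05 (20.3% of all genes). Kif5b had the smallest p (-0.22, SE 0.07, edgeR adjusted p = 0.0573), followed by Kif5a (-0.19, SE 0.06, adjusted p = 0.0613) and Kif22 (-0.26, SE 0.09, adjusted p = 0.101), where a negative value means a lower response in males. DESeq2 called 5 kinesins, against 9.36% of all genes, and limma voom called 1. In the 23 fits that leave out 1 cord Kif5b passed in 6 and Kif5a in 3. Motor partners were called in the same test: Hap1, Kif1bp and Mapk8ip2 of the cargo adaptors and the dynactin subunits Dctn1 and Actr1a were higher (0.20 to 0.35), and Hook3, Bicd1 and the dynein light chain Dynlt3, with Kifc2, were lower (-0.38 to -0.20). Cell type markers were called there too, all higher: 3 of 10 of neurons, 3 of 7 of oligodendrocytes, 2 of 6 of microglia, 2 of 6 of skeletal muscle and 1 of 6 of astrocytes, beside 1 of 19 cell cycle genes. Their part in the kinesin values was not tested, and the blocks of library numbers coincide with this test as well.

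**Figure D3:**
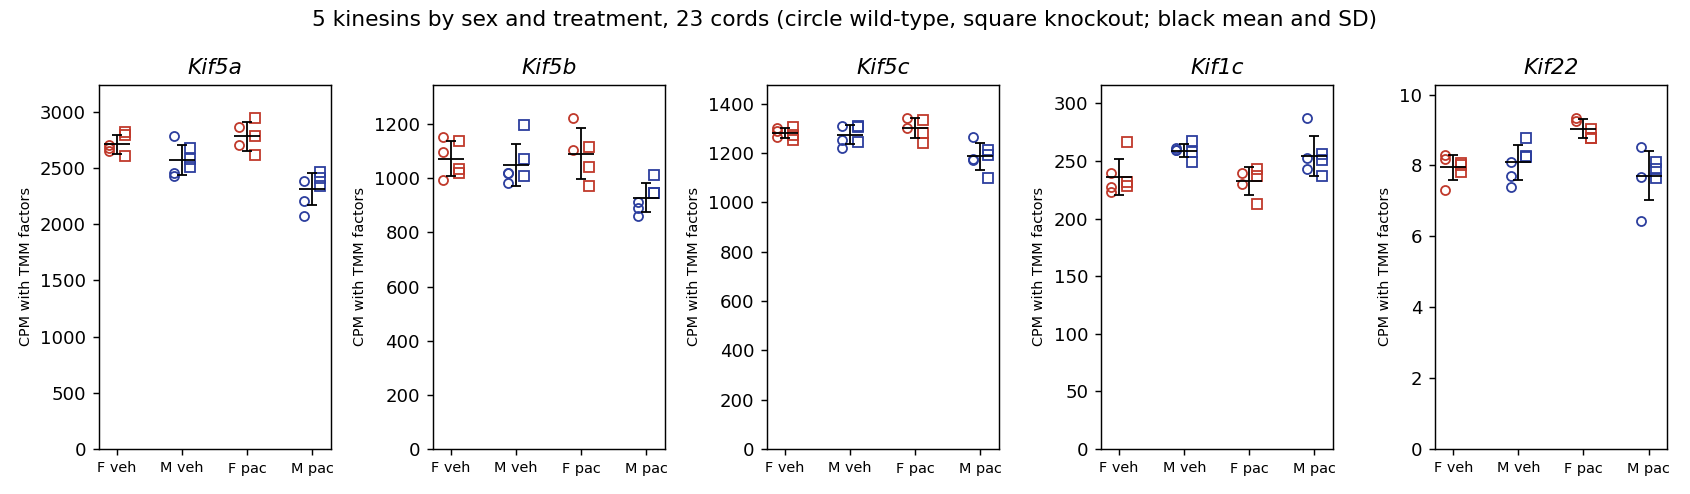
CPM with TMM factors of Kif5a, Kif5b, Kif5c, Kif1c and Kif22 in 23 cords by sex (F, M) and treatment (veh, pac), circles wild-type and squares knockout, with the mean and SD in black and axes from 0. In the Kif5a and Kif22 panels all male paclitaxel cords lie below all female paclitaxel cords, while Kif1c is higher in males under both treatments.

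The values of cell type markers in the same comparisons were as follows, and their part in the kinesin differences was not tested. Under paclitaxel 9 of 10 neuron markers were above 0 in males against females (median 0.15, with Tubb3 and Rbfox3 called higher and Slc17a6 called lower). Other markers called there were Mobp (lower) and Cnp (higher) of oligodendrocytes, Csf1r of microglia (higher) and Cdc20 of the cell cycle (higher). Under vehicle 9 of 10 were below 0, with 0 called. Schwann cell markers were above 0 in 5 of 5 under paclitaxel (median 0.32, 0 called) and skeletal muscle markers in 6 of 6 (median 1.47, 1 called), and skeletal muscle markers were below 0 in 6 of 6 under vehicle (median -1.18, 0 called). Over 23 cords the summed level of the neuron list ran from 8790 to 10010 CPM in females and from 8425 to 10990 in males, and for every list the ranges of the sums overlapped between the sexes. Of the partner genes, Bicd2, a dynein adaptor, was called lower in males over both treatments (-0.13, SE 0.03, edgeR adjusted p = 0.0482), and Kifc2 was called higher under vehicle (0.19, SE 0.04, edgeR adjusted p = 0.0112). Under paclitaxel the called partners were Hook3, Bicd2 and Bicd1 (lower), which are dynein adaptors, and Dctn1, Dctn2 and Actr1a (higher), which are dynactin subunits, with the cargo adaptors Arl8a and Mapk8ip2 (higher).

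Kinesin levels across the 23 cords were also set beside markers of single cell types. Each tested kinesin was correlated with Mki67 (dividing cells), Foxj1 (ciliated cells) and Nefh (large axons) on log2(CPM + 0.1), with permutation p values adjusted over all 25371 other genes for each marker, 108 kinesin relations in all. A relation passed when the permutation adjusted p of Pearson r and of Spearman rho were both under 0.05. The p values printed here are those of r unless rho is named. With Mki67, 0 kinesins and 0% of all genes passed. With Foxj1 0 kinesins passed, against 0.981% of all genes with a positive and 1.17% with a negative correlation. There Kif13b (r = -0.678), Kif13a (-0.653) and Kif26a (0.593) were under 0.05 by r alone. Their adjusted permutation p was 0.00762, 0.0339 and 0.0347 for r, and 0.058, 0.289 and 0.245 for rho. With Nefh 3 kinesins passed with a negative correlation, against 7.06% of all genes, and 1 with a positive one, against 4.27%. Kif5b had r = -0.765 and rho = -0.702 over 23 cords (permutation p = 1e-05, the smallest 100000 permutations can give, and adjusted p = 0.000431), and -0.677 without the 2 cords of most extreme Nefh and -0.577 within the 8 groups. Kif2a had r = -0.704 and rho = -0.679 (permutation p = 0.00019, adjusted 0.00304; -0.547 within groups), and Kif11 r = -0.619 and rho = -0.617 (permutation p = 0.00162, adjusted 0.015; -0.524 within groups). Kif26a, an atypical kinesin that is close to Kif26b, had r = 0.594 (permutation p = 0.00311, adjusted 0.0245), with 0.34 without those 2 cords and 0.442 within the 8 groups. Kif15 fell short on rho (r = -0.607, adjusted permutation p = 0.0182 for r and 0.0719 for rho). Kif5a, which carries neurofilaments, did not pass (r = -0.441, rho = -0.411, permutation p = 0.0349, adjusted 0.141).

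The ganglion-like library had a kinesin make-up of its own. It is 1 library, so its values carry no error and no test, and they are set beside the range of the 23 cords. Of the 36 tested kinesins 13 lay above that range and 12 below it, against 25.3% and 33.6% of all tested genes. Its transport kinesins held 79.9% of the kinesin level per kb against at least 90.9% in every cord, and the class of regulators held 18.4% against at most 8.18%. The largest part of that came from Kif21a, at 985 CPM against 360 to 414 in cords (2.55 times the median). Kif5a fell to 1285 CPM against 2108 to 2907, or 0.49 times the median, and took 42.9% of the Kif5 level where cords gave 51.8 to 56.8%. Kif5c lay at 997 CPM (1104 to 1353 in cords) and Kif1a at 1202 (1378 to 1617), both below the cord range.

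Kif3a and Kif3b of kinesin-2 and the endosome motor Kif16b were higher in that library. Kif3a lay at 237 CPM against 138 to 169, Kif3b at 121 against 62.7 to 74.5, and Kif16b at 59.3 against 25.5 to 32.3. Kif3c, at 169 CPM, lay within its cord range of 128 to 173. Kif1c lay at 59.9 CPM against 212.5 to 283 (0.25 times the median), Kif21b, a dendritic kinesin-4, at 22.8 against 92.2 to 118 (0.22 times), Kif17 at 4.41 (0.39 times the median), and Kif6 at 1.20 against 4.02 to 6.89. Summed markers of astrocytes (235 against 5072 to 6060 CPM) and oligodendrocytes (3242 against 24050 to 28780 CPM) were also below their ranges there, and their part in these low values was not tested. Markers of Schwann cells and skeletal muscle were above their ranges, and their part in the higher kinesin values of this library was not tested.

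Several mitotic kinesins were higher there too. Kif23, a kinesin-6 of the central spindle, lay at 8.51 CPM against 0.79 to 1.68 (8.06 times the median), Kif11 at 5.60 against 1.19 to 2.59 (3.20 times), and Kif20b at 2.75 against 0.98 to 1.83, while Kif4, a chromosome-bound motor encoded on the X chromosome, was lower at 0.94 against 1.63 to 3.15. Of 19 cell cycle genes 9 lay above their range and 1 below, and their sum of 38.8 CPM lay within the cord range of 25.4 to 39.8. Kif19a, the cilium depolymerase, lay at 34.0 CPM against 8.86 to 13.5, although all 12 markers of ependymal cilia were below their range.

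**Figure D4:**
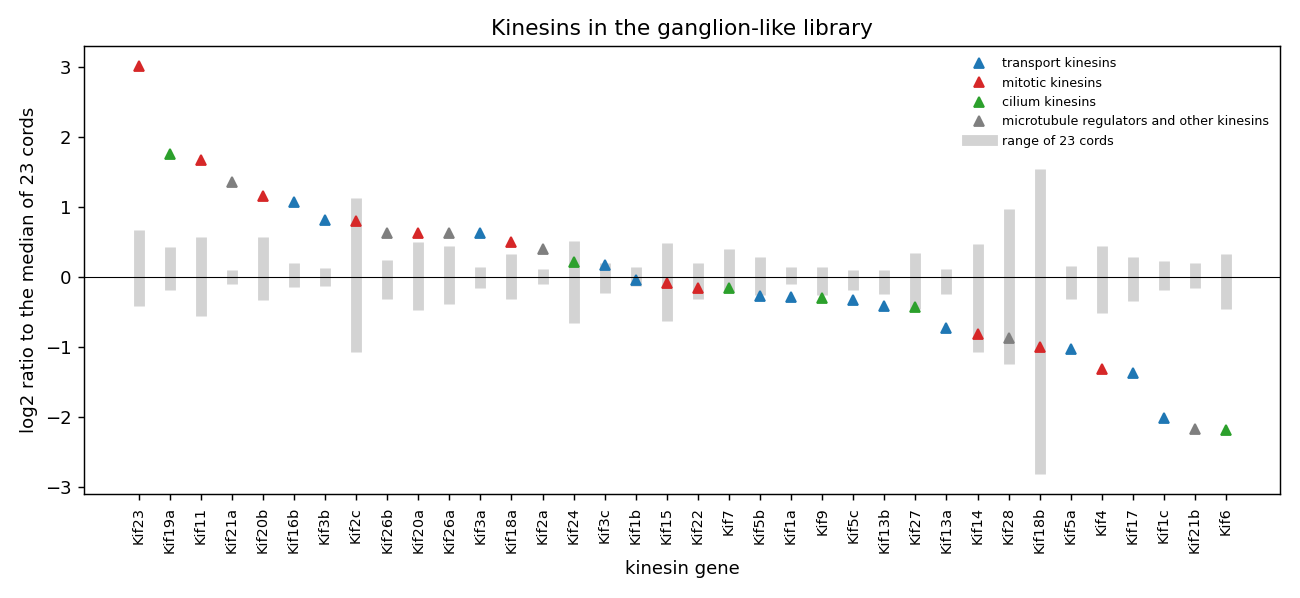
Log2 ratio of the ganglion-like library to the median of 23 cords for 36 kinesins (triangles, coloured by class), with grey bars for the range of the 23 cords. Kif23 stands at 3.01 and Kif21a at 1.35, well above their bars, while Kif5a at -1.03, Kif1c at -2.01, Kif21b at -2.17 and Kif6 at -2.19 stand below theirs.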

How the data were processed

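The deposited table holds whole-number counts per gene symbol, which the authors made with STAR, whose version is not stated, and featureCounts 1.6.2 (both named in the submitters' processing notes), over exons of Ensembl GRCm38 release 96 and without strand, pair or multimapping options per the file headers. An odd count occurred in 34.4 to 37.3% of genes with 1 to 20 counts, as both mates of a pair counted singly would give. Totals therefore overstate molecules, and reads in exons shared by genes were not counted. Each library is a separate mouse per the labels.

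Genes were kept with filterByExpr (25372 genes), scaled by TMM factors and fitted with edgeR 4.0.16 quasi-likelihood on 8 group means over 23 libraries. Benjamini-Hochberg adjustment ran over every gene in the fit, with calls at an adjusted p under 0.05. Levels and single-library values for the ganglion-like library use CPM from library totals, and group comparisons use CPM with TMM factors. The fit was tested on simulated data. For paclitaxel against vehicle in knockout cords it recovered 73% of 2-fold and 55% of 1.5-fold changes, with 4 false calls. A count of 0 calls can therefore miss real changes of these sizes. DESeq2 1.42.0, limma voom 3.58.1, other scalings, no filter, all 24 libraries, a replicate block and each cord left out were alternatives. Correlations were adjusted over all genes per marker, where the plan had set the kinesin pairs as the family; 1 planned marker is not reported here. The split of sex by treatment was added after the data were seen.

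The kinesins, the gene lists and the rule for named genes (the 10 highest, the best mitotic member, Kif11 and Kif20a, the 3 smallest p per comparison, and all called members and partners) were chosen with earlier results of these data known.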

Additional observations from a re-analysis of the deposited data

Results flagged for a closer look

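In groups of 5 or 6 cords of 1 genotype and treatment, 10 of 144 gene and group pairs (6.94%) had 1 cord set apart from the rest by Dixon's ratio, where chance alone gives about 1 in 20. Values are CPM with TMM factors. Among transport kinesins, Kif3a reached 167.6 in wild-type female vehicle replicate 2 (the others lay at 153 to 156), and Kif16b reached 29.46 in wild-type male paclitaxel replicate 1 (25.9 to 26.9). Kif6 reached 6.859 in knockout male paclitaxel replicate 3 (5.29 to 5.73). Kif28 fell to 0.08577 in wild-type female vehicle replicate 3 (0.17 to 0.21). The other 6 were mitotic kinesins at low counts. Kif2c reached 0.4927 in knockout female vehicle replicate 2 (0.20 to 0.28), Kif18b 0.3765 in wild-type male vehicle replicate 1 (0.08 to 0.18), Kif20b 1.696 in wild-type female paclitaxel replicate 2 (1.11 to 1.26), and Kif11 2.284 in knockout male vehicle replicate 3 (1.46 to 1.75). Kif15 fell to 1.412 in knockout female paclitaxel replicate 2 (2.07 to 2.41) and Kif20a to 1.29 in wild-type male paclitaxel replicate 2 (1.71 to 1.81).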

How the results depend on the processing

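The count of called kinesins stayed at 0 for paclitaxel in each genotype and in both, for the knockout, and for genotype by treatment under all alternatives run. For males against females it was 3, and 4 by DESeq2 and 0 with all 24 libraries. Under paclitaxel alone it was 4, and 5 by DESeq2 and 0 with all 24 libraries. For sex by treatment it was 0, and 5 by DESeq2, 1 by limma voom, 2 with library totals, 2 without a filter and 2 with the replicate block, which changed no other count of calls by over 1.5 times. Leaving out 1 cord gave 1 to 3 for males against females, 1 to 5 for the same under paclitaxel, and 0 to 3 for sex by treatment. With all 24 libraries Kif16b turned from -0.15 to 0.1154 and Kif3b from -0.14 to 0.05497 in wild-type cords, and from -0.10 to 0.03559 and from -0.08 to 0.01932 over both genotypes; the 1 library added is the ganglion-like one. Replicate numbers were not used to pair the animals in the main fit. The median correlation was 0.03 for 77 same-numbered pairs, 25 of them above 0.1, and -0.01 for 154 pairs of different numbers. Of 23 libraries 12 correlated best with their own number. These values do not decide whether the numbers mark a pairing. Depth limits the lowest members: the mitotic kinesins Kif18b and Kif2c had medians of 14 and 22 counts. Kif28, of the microtubule regulators and others, had a median of 16.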
